A study of Bos taurus with 21 samples.

Results

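The adenine nucleotide carriers and the uncoupling proteins are related carriers of the inner mitochondrial membrane. Of the 12538 genes named on the array, the 5 described here were SLC25A4, SLC25A5 and SLC25A6, which encode adenine nucleotide carriers, and UCP2 and UCP3, which encode uncoupling proteins. They were found by mapping the transcript identifier of every non-control probe to a cattle gene, and gave 15 probes: 4 for SLC25A4, 3 for SLC25A5, 4 for SLC25A6, 2 for UCP2 and 2 for UCP3.

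The adenine nucleotide carriers exchange matrix ATP for cytosolic ADP and so link ATP synthase to the ATP-consuming machinery of the cell. SLC25A4 is the isoform typical of heart and skeletal muscle, SLC25A5 is known from proliferating cells, and SLC25A6 is expressed in most tissues. UCP3 is found mainly in skeletal muscle, where its level follows fatty acid supply, while UCP2 is widely expressed and is abundant in leukocytes.

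RNA was taken from muscle of 21 foetuses, 10 of the Blonde Aquitaine breed (BA) and 11 of the Charolais breed (CH), and each foetus was hybridised to 1 single-colour array. BA numbered 3, 2, 3 and 2 foetuses and CH numbered 2, 3, 3 and 3 foetuses at 110, 180, 210 and 260 days post conception (dpc), with 13 females and 8 males spread unevenly over the groups. Males were BA 110 dpc replicates 1 and 3, BA 210 dpc replicate 3 and CH 180 dpc replicate 3. They also included CH 210 dpc replicates 2 and 3 and CH 260 dpc replicates 1 and 2. The BA foetuses were sired by Fallou or Oulou and the CH foetuses by Indiana or Jourdan, so foetuses shared sires. All BA foetuses of 180 dpc had the sire Fallou, all of 260 dpc Oulou, and all CH foetuses of 210 dpc Indiana. Sire and stage therefore cannot be fully told apart within a breed. BA is a heavily muscled breed in which a mutation of MSTN, the gene of the muscle growth inhibitor myostatin, is common, but these foetuses were not genotyped for it, and both breeds were sampled without any treatment. The labels name the muscle as Longissimus thoracis whereas the methods of the study name m. Semitendinosus, so it is called muscle here.

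All values are normalized log2 intensities, scaled so that a probe of median brightness lies near 0, and a difference of 1 is a change of 2-fold. Probes whose group mean exceeded 0 in 7 or all 8 of the breed and stage groups were tested, which were 20132 of 43653 probes and included 3 of the 5 genes and 10 of their 15 probes. For each gene the brightest tested probe, or the brightest probe where none was tested, is called its main probe. UCP2 and UCP3 fell under the filter, and their tests come from the fit over all probes. Between 29027 and 34507 probes were well above background per array, and all 8 skeletal muscle fibre markers on the array were well above background on all 21 arrays. In RNA from whole muscle, fewer cells of a type and less RNA per cell cannot be told apart.

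SLC25A4 rose over the whole period in both breeds, while SLC25A5 fell, and SLC25A6 fell on its main probe. All 3 tested genes passed the threshold between 110 and 260 dpc, against 64.1% of all tested probes. Changes at this interval were therefore common on the array. How many probes had stages without overlap was not counted, so each such separation of stages below only describes the values.

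The main probe of SLC25A4 read 7.01, 7.48 and 7.31 in BA at 110 dpc, 7.86 and 8.09 at 180 dpc, 8.23, 8.30 and 8.74 at 210 dpc and 9.61 and 9.49 at 260 dpc. In CH it read 7.60 and 7.54 at 110 dpc, 8.08, 8.31 and 7.90 at 180 dpc, 8.55, 8.40 and 8.46 at 210 dpc and 9.34, 9.76 and 9.61 at 260 dpc. In each breed every foetus of a later stage lay above every foetus of the stage before it. The increase from 110 to 260 dpc was 2.14 (SE 0.12) over the mean of the breeds, or 4.42-fold, with an adjusted p of 1.4e-10 by limma. It was 2.29 (SE 0.17) in BA and 2.00 (SE 0.17) in CH, where limma gave adjusted p-values of 1.4e-08 and 6.6e-08. Among tested probes, 52.4% passed this comparison in BA and 52.2% in CH.

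The rise of SLC25A4 was not even over the stages. It was 0.62 (SE 0.12) from 110 to 180 dpc, 0.41 (SE 0.12) from 180 to 210 dpc and 1.12 (SE 0.12) from 210 to 260 dpc, with limma adjusted p-values of 0.0015, 0.034 and 1.4e-06. The middle step lost its call in 7 of the alternative settings and without any 1 of 7 arrays, as listed in the closing section. The other 3 probes of SLC25A4 rose by 2.50, 2.57 and 2.52 from 110 to 260 dpc and followed the main probe with correlations of 0.97 to 0.99 over the 21 arrays. Their middle steps were 0.56, 0.59 and 0.66, with limma adjusted p-values of 0.023, 0.022 and 0.013.

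The main probe of SLC25A5 read 3.14, 3.05 and 2.98 in BA at 110 dpc, 2.45 and 2.66 at 180 dpc, 2.25, 2.35 and 2.61 at 210 dpc and 2.10 and 1.81 at 260 dpc. In CH it read 3.31 and 3.16 at 110 dpc, 2.75, 2.67 and 2.72 at 180 dpc, 2.53, 2.38 and 2.82 at 210 dpc and 1.53, 1.62 and 1.83 at 260 dpc. The 110 dpc foetuses were the highest and the 260 dpc foetuses the lowest of each breed, without overlap with the stages between, which overlapped each other. The difference between 260 and 110 dpc was -1.33 (SE 0.10), a 2.52-fold decrease, with an adjusted p of 5.3e-09 by limma. It was -1.10 (SE 0.15) in BA and -1.57 (SE 0.15) in CH, and both passed, with limma adjusted p-values of 7.7e-06 and 1.4e-07.

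SLC25A5 moved mostly in the first and last intervals. The differences were -0.51 (SE 0.10) from 110 to 180 dpc, -0.14 (SE 0.10) from 180 to 210 dpc and -0.68 (SE 0.10) from 210 to 260 dpc, and limma gave adjusted p-values of 0.0016, 0.40 and 3.1e-05. The other probes gave differences of -1.31 and -1.45 between 260 and 110 dpc, the last of them from a probe under the filter.

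The main probe of SLC25A6 was the brightest of its 4 probes. It read 8.90, 9.31 and 9.11 in BA at 110 dpc, 8.74 and 9.08 at 180 dpc, 8.89, 8.66 and 8.59 at 210 dpc and 8.36 and 8.19 at 260 dpc. In CH it read 9.44 and 9.40 at 110 dpc, 9.34, 9.10 and 8.84 at 180 dpc, 8.62, 9.03 and 8.83 at 210 dpc and 8.17, 8.30 and 8.33 at 260 dpc. The 260 dpc foetuses were the lowest in both breeds and did not overlap with any earlier stage. The difference between 260 and 110 dpc was -0.99 (SE 0.12), a 1.98-fold decrease, with an adjusted p of 1.0e-06 by limma. It was -0.83 (SE 0.16) in BA and -1.15 (SE 0.16) in CH, with limma adjusted p-values of 4.5e-04 and 1.8e-05.

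Of the successive steps of this SLC25A6 probe, limma called the last one alone, at -0.50 (SE 0.11) with an adjusted p of 0.0015. The first step was -0.26 (SE 0.12) and the second -0.23 (SE 0.11), with limma adjusted p-values of 0.12 and 0.21. Over the 3 successive steps, the share of tested probes that passed was 24%, 9.69% and 44.7%, and of the 3 tested genes 2, 1 and 3 passed.

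**Figure D1:**
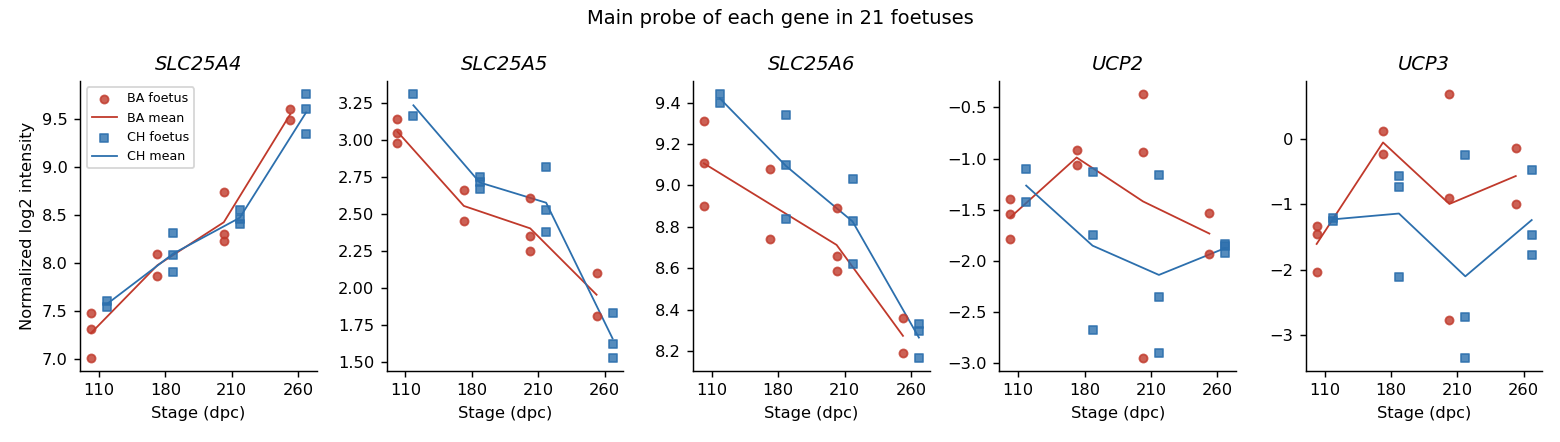
Normalized log2 intensity of the main probe of each of the 5 genes against stage in days post conception, with a point for each of the 21 foetuses and a line through the group means, BA in red and CH in blue. SLC25A4 climbs from between 7.01 and 7.60 at 110 dpc to between 9.34 and 9.76 at 260 dpc, SLC25A5 and SLC25A6 decline, and UCP2 and UCP3 scatter most at 180 and 210 dpc. The vertical axes differ between panels.

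The 4 probes of SLC25A6 did not give 1 direction. The probe A_73_P434891 went the same way as the main probe, with a difference of -0.99 (SE 0.20) between 260 and 110 dpc and an adjusted p of 3.4e-04 by limma. The probes A_73_P232447 and A_73_P275426 went the opposite way, by 1.38 (SE 0.15) and 1.34 (SE 0.16), with limma adjusted p-values of 4.1e-07 and 1.2e-06. All 4 are assigned to the same transcript and were well above background on all 21 arrays.

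The rising probe A_73_P232447 read 4.50, 5.05 and 4.48 in BA at 110 dpc and 6.35 and 6.20 at 260 dpc. In CH it read 5.41 and 5.28 at 110 dpc and 6.36, 6.57 and 6.61 at 260 dpc, so the stages did not overlap in either breed. Over the 21 arrays its values correlated with the main probe of SLC25A4 at 0.94 and with the main probe of SLC25A6 at -0.68. The other rising probe gave 0.92 and -0.65, and the probe A_73_P434891 correlated with the main probe of SLC25A6 at 0.89. The arrays share the stages, so these correlations describe the probes and are given without a test. SLC25A4, SLC25A5 and SLC25A6 are close relatives in sequence, and whether a probe also hybridised a relative was not tested, since probe sequences were not used here. The direction of SLC25A6 is therefore uncertain, and each SLC25A6 value below is named by its probe.

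**Figure D2:**
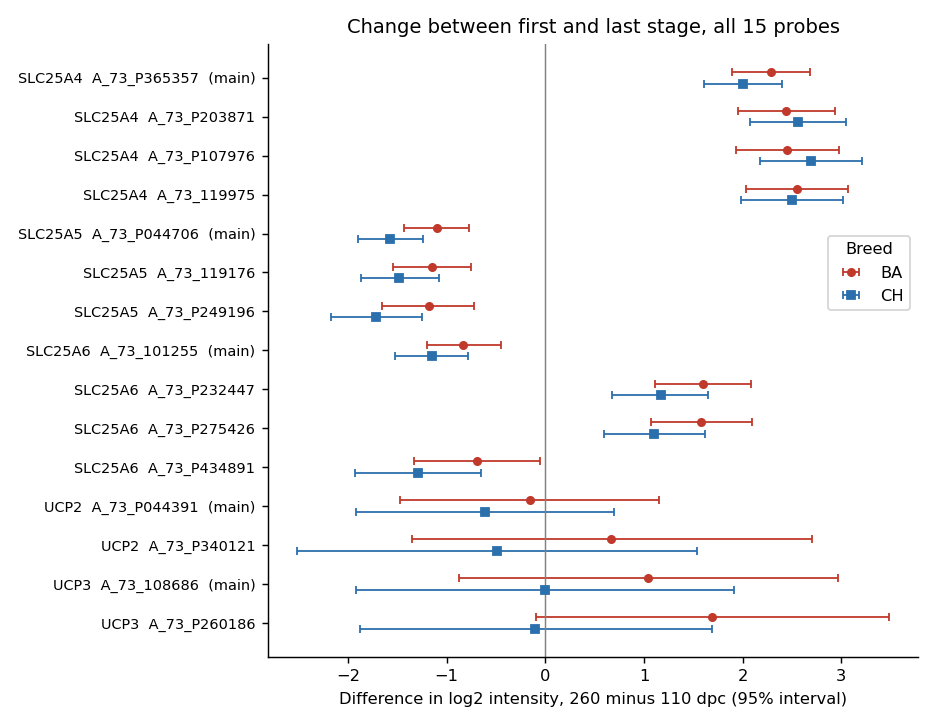
Difference in log2 intensity between 260 and 110 dpc for all 15 probes, with the 95% interval from the fit over all probes, BA as red circles and CH as blue squares. All probes of SLC25A4 lie above 0 and all probes of SLC25A5 below 0, the 4 probes of SLC25A6 fall on both sides, and every interval of UCP2 and UCP3 includes 0.

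The balance between the carrier isoforms was read within each array, as the log2 intensity of one main probe less that of another. The level of such a difference depends on the probes and is not a ratio of transcripts, but its change between stages is free of the scaling of the array. SLC25A4 less SLC25A5 averaged 4.21 in the 3 BA foetuses of 110 dpc (SD 0.30), 5.43 in the 2 of 180 dpc (SD 0.02), 6.02 in the 3 of 210 dpc (SD 0.09) and 7.60 in the 2 of 260 dpc (SD 0.12). The averages in CH were 4.34 in 2 foetuses of 110 dpc (SD 0.06), 5.38 in 3 of 180 dpc (SD 0.24), 5.90 in 3 of 210 dpc (SD 0.22) and 7.91 in 3 of 260 dpc (SD 0.20). Neither breed had any overlap between 110 and 180 dpc or between 210 and 260 dpc.

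Between 110 and 260 dpc SLC25A4 less SLC25A5 increased by 3.48 over the mean of the breeds. The two-sided exact permutation test within breeds gave p = 0.01, the smallest that its 100 labelings can give, and 0.02 after adjustment over the 4 pairs examined. SLC25A4 less SLC25A6 increased by 3.13 with the main probe of SLC25A6 (exact p = 0.01, adjusted 0.02) and by 0.76 with the rising probe A_73_P232447 (exact test, adjusted p = 0.013). The shift toward SLC25A4 thus kept its sign with either of these SLC25A6 probes, at different sizes.

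SLC25A5 less SLC25A6 changed by -0.35 with the main probe of SLC25A6 (exact p = 0.03, adjusted 0.04) and by -2.72 with A_73_P232447 (exact test, adjusted p = 0.013). UCP3 less UCP2 changed by 0.90 (exact p = 0.04, adjusted 0.04). In this last pair BA went from a mean of -0.03 (SD 0.53, n = 3) to 1.18 (SD 0.90, n = 2) and CH from 0.04 (SD 0.26, n = 2) to 0.64 (SD 0.66, n = 3), and the stages overlapped in CH. The calls of these 2 pairs were lost on leaving out most of the single arrays of 110 and 260 dpc, and with female foetuses alone no pair could pass, as detailed in the closing section.

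**Figure D3:**
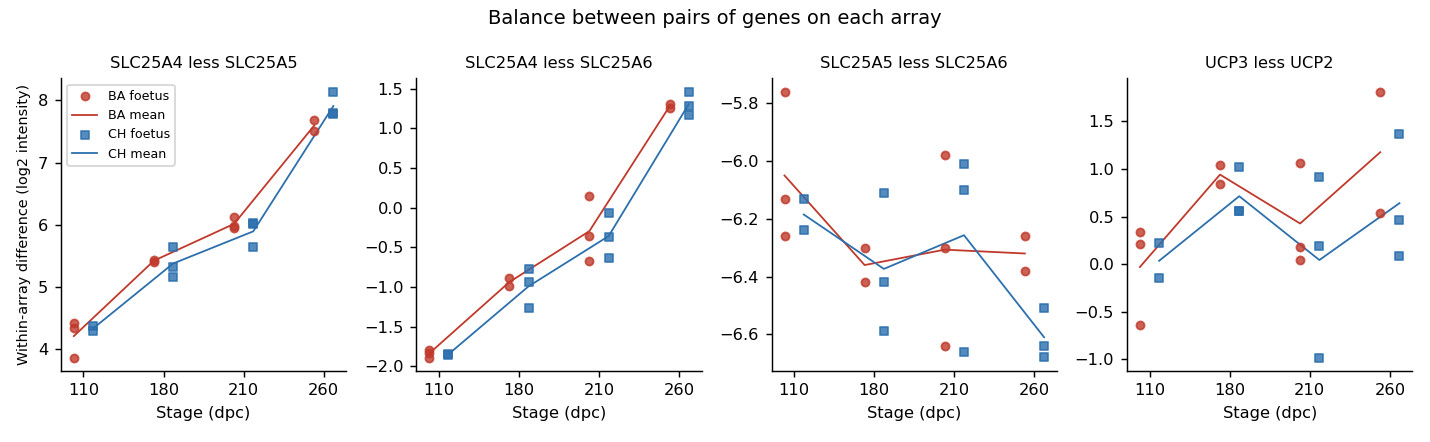
Within-array difference in log2 intensity between the main probes of 4 pairs of genes against stage in days post conception, with a point for each foetus and lines through the group means, BA in red and CH in blue. SLC25A4 less SLC25A5 moves from between 3.87 and 4.43 at 110 dpc to between 7.51 and 8.14 at 260 dpc in both breeds, whereas UCP3 less UCP2 overlaps between these stages in CH.

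No carrier probe was called between the breeds. On the main probes, BA minus CH over the mean of the stages passed the threshold for none of the 3 tested genes, where 0.358% of the tested probes passed. The difference was -0.12 for SLC25A4 (95% interval -0.30 to 0.06), -0.05 for SLC25A5 (-0.20 to 0.10) and -0.15 for the main probe of SLC25A6 (-0.32 to 0.02), with limma adjusted p-values of 0.58, 0.80 and 0.46. None of these main probes had an unadjusted p under 0.05, and their intervals do not show that the breeds were alike. The other 3 probes of SLC25A6 were all lower in BA, by differences of -0.28 for A_73_P232447 (95% interval -0.50 to -0.06), -0.26 for A_73_P275426 (-0.49 to -0.02) and -0.37 for A_73_P434891 (-0.66 to -0.08). Their unadjusted p-values by limma were 0.014, 0.033 and 0.016, and their adjusted p-values of 0.26, 0.35 and 0.27 missed the threshold. Of the 20132 tested probes, 2512 had an unadjusted p under 0.05.

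At 110 dpc every BA foetus lay below every CH foetus on the main probes of all 3 genes, a pattern that 17.5% of tested probes had. The differences were -0.30 for SLC25A4, -0.18 for SLC25A5 and -0.31 for the main probe of SLC25A6, none of which limma called (adjusted p-values of 0.47, 0.62 and 0.42), against 0.273% of tested probes that passed at this stage. The other 3 probes of SLC25A4 overlapped between the breeds at 110 dpc, with differences of -0.03 for A_73_P203871, 0.15 for A_73_P107976 and -0.11 for A_73_119975. The SLC25A5 probe A_73_119176 also overlapped, with a difference of -0.19. The other 3 probes of SLC25A6 did not overlap. They differed by -0.67 for A_73_P232447, -0.58 for A_73_P275426 and -0.77 for A_73_P434891, with unadjusted p-values of 0.006, 0.021 and 0.015 and adjusted p-values of 0.19, 0.27 and 0.24 by limma, while 2775 tested probes had an unadjusted p under 0.05. At this stage BA replicates 1 and 3 were male and every other foetus was female. On each SLC25A6 probe the BA female was the BA foetus nearest to CH. Breed and sex therefore cannot be fully told apart at 110 dpc. Of the other gene lists, described below, most overlapped between the breeds at 110 dpc. The mean level of the other mitochondrial carriers, for example, was 1.43 to 1.66 in BA and 1.39 to 1.58 in CH. Some lists separated the breeds. The mean level of the skeletal muscle fibre markers was 7.79 to 8.20 in BA and 8.26 to 8.30 in CH. That of the ATP synthase genes was 6.92 to 7.05 and 7.08 to 7.16. That of the fatty acid handling genes was 2.40 to 2.50 and 2.62 to 2.69, and that of the endothelial markers 2.89 to 3.07 and 3.08 to 3.16. The part of these lists in the carrier values was not tested. At 180, 210 and 260 dpc no carrier gene passed either, where 0.00993%, 0% and 0% of the tested probes passed. By limma, 1242 tested probes at 180 dpc, 1054 at 210 dpc and 1075 at 260 dpc had an unadjusted p under 0.05. Among them at 180 dpc was the SLC25A4 probe A_73_119975, at -0.60 (95% interval -1.09 to -0.11, unadjusted p 0.019, adjusted p 0.73 by limma). The main probe of SLC25A4 gave -0.12 there, A_73_P203871 -0.26 and A_73_P107976 -0.37.

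The largest stage-specific breed difference among the main carrier probes after 110 dpc was that of SLC25A5 at 260 dpc. BA read 2.10 and 1.81 and CH read 1.53, 1.62 and 1.83, so the lower BA foetus lay just under the highest CH foetus. BA was higher by 0.30 (95% interval -0.01 to 0.61), with an adjusted p of 0.94 by limma, and by 0.15 without BA 260 dpc replicate 1. The other SLC25A5 probes gave 0.14 for A_73_119176 and 0.15 for A_73_P249196, the latter from the fit over all probes. The decrease of SLC25A5 from 110 to 260 dpc was smaller in BA by 0.47 (SE 0.21), with an unadjusted p of 0.034 and an adjusted p of 0.68 by limma. On A_73_119176 and A_73_P249196 it was smaller by 0.33 and 0.52, with unadjusted p-values of 0.20 and 0.11 by limma. The same breed difference in the change was 0.28 (SE 0.25) for SLC25A4 and 0.32 (SE 0.23) for the main probe of SLC25A6, with limma adjusted p-values of 0.86 and 0.81. In this interaction limma called 0% of the tested probes, while 1427 had an unadjusted p under 0.05. The males of 110 dpc were all BA and those of 260 dpc all CH. Sex and breed therefore cannot be fully told apart in this interaction or in the 260 dpc difference. For SLC25A5 at 260 dpc the CH males read 1.53 and 1.62 and the CH female 1.83, while both BA foetuses were female.

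The balance between isoforms did not pass a test of breed either. BA minus CH was -0.07 for SLC25A4 less SLC25A5, 0.03 for SLC25A4 less SLC25A6, 0.10 for SLC25A5 less SLC25A6 and 0.27 for UCP3 less UCP2. Exact permutation within stages over 20000 labelings gave p-values of 0.45, 0.76, 0.33 and 0.28, and adjusted values of 0.61, 0.76, 0.61 and 0.61. UCP3 less UCP2 here includes 4 arrays on which neither probe was well above background, those of the males of 180 and 210 dpc. Without them, a setting chosen after these values were seen, it was 0.06, with an adjusted p of 0.82 by the same exact permutation.

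Slides held up to 4 arrays, and 6 pairs of foetuses of the same stage but different breed shared a slide. Within these pairs BA minus CH ranged from -0.25 to 0.15 for SLC25A4, from -0.26 to 0.28 for SLC25A5 and from -0.14 to 0.04 for the main probe of SLC25A6. For A_73_P434891 it ranged from -0.46 to 0.04, with BA lower in 5 of the 6 pairs. No slide held foetuses of 110 and 260 dpc of 1 breed, so the change over stages was examined within scan days. Within the scan days that held both stages it was 1.80 and 2.08 in CH and 2.36 in BA for SLC25A4, -1.63 and -1.58 in CH and -0.99 in BA for SLC25A5, and -1.23 and -1.12 in CH and -0.75 in BA for the main probe of SLC25A6. Each of these values rests on 1 or 2 arrays a stage.

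**Figure D4:**
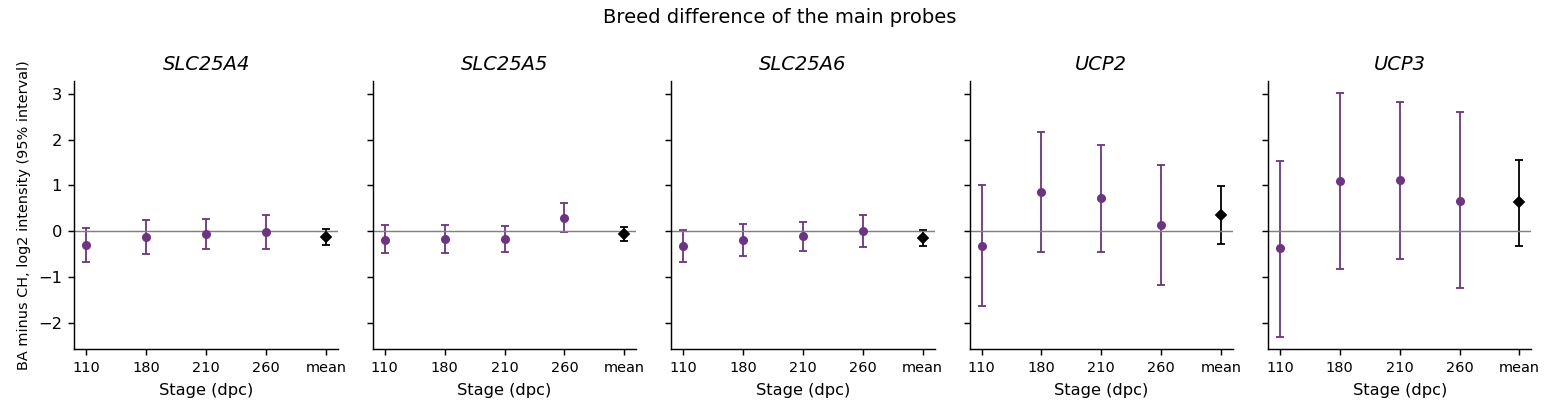
BA minus CH in normalized log2 intensity for the main probe of each gene at each stage in days post conception (circles) and over the mean of the stages (diamonds), with 95% intervals from limma. The intervals of the 3 carriers are narrow and those of UCP2 and UCP3 wide, and all of them include 0.

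UCP2 and UCP3 were dim. Their main probes were well above background on 17 of the 21 arrays each, and their second probes on 4 arrays each, so only the main probes are described in full. The main probe of UCP1, the uncoupling protein of brown fat, was well above background on 0 arrays.

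The main probe of UCP2 read -1.40, -1.79 and -1.54 in BA at 110 dpc, -1.06 and -0.92 at 180 dpc, -0.37, -0.94 and -2.95 at 210 dpc and -1.53 and -1.94 at 260 dpc. In CH it read -1.10 and -1.43 at 110 dpc, -1.75, -1.13 and -2.68 at 180 dpc, -1.16, -2.36 and -2.90 at 210 dpc and -1.84, -1.93 and -1.86 at 260 dpc. The stages overlapped in BA, while in CH the 260 dpc foetuses all lay below those of 110 dpc. The difference between 260 and 110 dpc was -0.38 (95% interval -1.31 to 0.54) with an adjusted p of 0.50 by limma, in a fit that called 43.9% of all probes. BA minus CH was 0.35 (95% interval -0.28 to 0.99), with an adjusted p of 0.79 by limma, where 0.0733% of all probes passed.

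The main probe of UCP3 read -2.04, -1.45 and -1.33 in BA at 110 dpc, -0.22 and 0.12 at 180 dpc, 0.69, -0.90 and -2.77 at 210 dpc and -1.0 and -0.13 at 260 dpc. In CH it read -1.25 and -1.21 at 110 dpc, -0.73, -0.57 and -2.12 at 180 dpc, -0.24, -3.35 and -2.72 at 210 dpc and -0.47, -1.47 and -1.78 at 260 dpc. Both BA foetuses of 260 dpc were above the BA foetuses of 110 dpc, but in CH the stages overlapped. The difference between 260 and 110 dpc was 0.52 (95% interval -0.84 to 1.87), and BA minus CH was 0.63 (95% interval -0.31 to 1.56), with limma adjusted p-values of 0.54 and 0.73. At 180 dpc both BA foetuses lay above all CH foetuses on the main probes of UCP2 and UCP3. The differences were 0.86 and 1.09, with limma adjusted p-values of 0.96 and 0.98. They were 0.45 and 0.61 without CH 180 dpc replicate 3, on whose array neither main probe was well above background. The second probes went the other way at 180 dpc, at -0.28 for UCP2 and -0.16 for UCP3. At this stage that of UCP2 was well above background on 0 arrays, and that of UCP3 on 1 CH array and 0 BA arrays. How many other probes separated the breeds at 180 dpc was not counted.

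The arrays on which UCP2 and UCP3 were not well above background were the same 4, and they were those of the 4 male foetuses of 180 and 210 dpc. In these males UCP2 ranged from -2.95 to -2.36 with a median of -2.79, and in the 7 females of the same stages it ranged from -1.75 to -0.37 with a median of -1.06. UCP3 ranged from -3.35 to -2.12 with a median of -2.74 in the males and from -0.90 to 0.69 with a median of -0.24 in the females. The sexes did not overlap on either main probe, and how many other probes separated these arrays by sex was not counted. On the second probe of UCP2 they overlapped, at -4.61 to -3.07 in the males and -4.66 to -2.76 in the females. The second probe of UCP3 ranged from -4.44 to -2.89 in the males and from -2.76 to -0.39 in the females. These second probes were well above background in 1 and 3 of the females and in 0 males. At 110 and 260 dpc the 4 males and the 6 females overlapped on both main probes, which were well above background on all 10 arrays.

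Male minus female over all stages was -0.03 on the second probe of UCP2 and -1.03 on that of UCP3. On the main probes it was -0.94 (SE 0.29) for UCP2 and -1.27 (SE 0.44) for UCP3. Their unadjusted p-values were 0.0054 and 0.012 and their adjusted p-values 0.48 and 0.52 by limma, in a fit that called 0.0687% of all probes. In a fit on the arrays of 180 and 210 dpc alone, chosen after these values were seen, it was -1.67 (SE 0.25) for UCP2 and -2.31 (SE 0.38) for UCP3, and the adjusted p-values of 0.23 and 0.29 by limma again missed the threshold. That fit called 19 of 43653 probes. Each male was also set at its own value or at the lowest detected signal of its array, whichever was higher. The mean of the females was then 2.44-fold higher for UCP2 and 3.98-fold higher for UCP3. These folds are not lower limits, since an undetected probe can lie above the lowest detected signal. In CH 180 dpc replicate 3, UCP3 read -2.12 without being well above background, and the lowest detected signal was -2.53. The carriers did not share this pattern, with male minus female of -0.07 for SLC25A4, 0.03 for SLC25A5 and -0.13 for the main probe of SLC25A6 (limma adjusted p-values of 0.89, 0.94 and 0.74), against 0.0695% of tested probes called.

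The 4 males lay on 3 slides and came from both breeds, 1 BA and 3 CH. Between 29027 and 31328 probes were well above background on their arrays, against 29940 to 34227 in the 7 females. The mean level of the leukocyte markers was 1.24 to 1.70 in the males and 1.19 to 2.10 in the females, and that of the fatty acid handling genes began at 2.78 in the males and at 2.73 in the females, so both lists overlapped between the sexes. The mean level of the endothelial markers was 3.35 to 3.62 in the males and 3.55 to 3.84 in the females. The part of these measures in the values of UCP2 and UCP3 was not tested. Because more of the males of 180 and 210 dpc were CH, BA minus CH was also fitted without these 4 arrays, where it was 0.20 for UCP2 and 0.26 for UCP3.

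**Figure D5:**
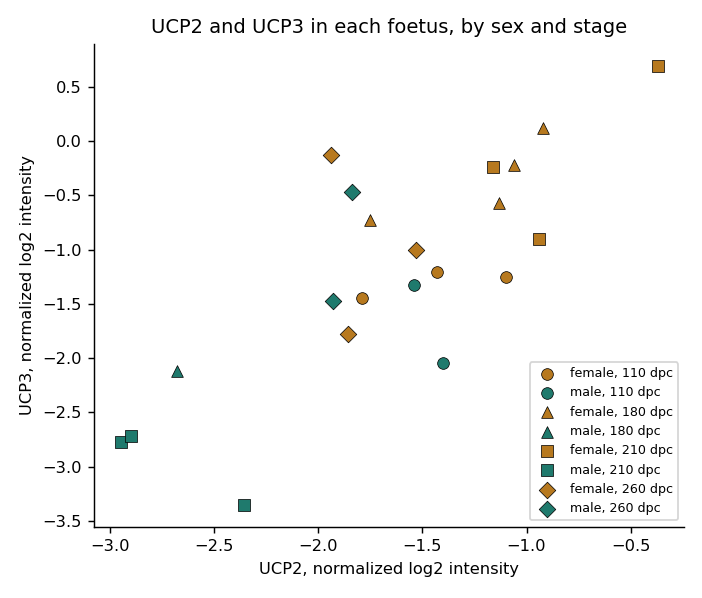
UCP3 against UCP2, both as normalized log2 intensity of the main probe, with a point for each of the 21 foetuses, coloured by sex and shaped by stage in days post conception. The 4 males of 180 and 210 dpc lie apart at the lower left, at or below -2.36 in UCP2 and -2.12 in UCP3, where neither probe was well above background.

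Since these 4 males lay apart, no correlation over all foetuses is given for the pair. In the 13 females UCP2 and UCP3 had a Pearson r of 0.63 (permutation p = 0.022) and a Spearman rho of 0.51 (permutation p = 0.079), and r was 0.69 without the 2 foetuses farthest from the median of UCP2. This was the only pair of genes for which such a test was made. The females were taken after these males were seen to lie apart. The permutations ignored stage and breed, in which the females differ. Stage differences shared by both genes therefore count in r, rho and their p-values, which do not measure covariation within a stage. In the cattle annotation UCP2 and UCP3 are near neighbours on the same chromosome.

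The genes around the carriers in the ATP pathway are given next, as the difference between 260 and 110 dpc over the mean of the breeds. Over all 7932 tested genes, 33.8% were called higher and 31.5% lower by limma, with a median of 0.03. All 19 genes of ATP synthase, which makes the ATP that the carriers export, rose, with a median of 1.09. The largest increases were in DMAC2L, an ATP synthase coupling factor (2.13, SE 0.17), ATP5MC1, of the membrane rotor (1.94, SE 0.13), and ATP5F1D, of the central stalk (1.44, SE 0.10).

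Of 12 tested genes listed as partners of ATP export, 9 rose and 3 fell, with a median of 1.35. They include the creatine kinases, which transfer the phosphate of ATP to creatine, and the porins of the outer membrane. The list also holds adenylate kinases, HK1 and TSPO, and not every member passes on exported ATP. The largest increases were in CKMT2, the creatine kinase of muscle mitochondria (6.08, SE 0.18), CKB, the brain-type enzyme (3.64, SE 0.16), and CKM, the cytosolic muscle enzyme (3.11, SE 0.11).

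Of 26 tested mitochondrial carriers other than the 5 genes, 11 rose, 6 fell and 9 did not pass, with a median of 0.14. SLC25A25, which exchanges ATP-magnesium for phosphate, rose by 2.14 (SE 0.13), SLC25A12, an aspartate and glutamate carrier, by 1.74 (SE 0.10), and SLC25A34, a carrier of less known substrate, by 1.69 (SE 0.20). SLC25A31, the adenine nucleotide carrier of testis, was under the filter and well above background on 5 arrays.

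Of 15 tested genes of fatty acid handling, 12 rose, 0 fell and 3 did not pass, with a median of 1.00. They include LPL, which releases fatty acids from lipoproteins (3.97, SE 0.18), CD36, which takes them up (2.23, SE 0.09), and ACSL1, which activates them (2.14, SE 0.09). Of 14 tested regulators of the carrier and uncoupling genes, 5 rose, 3 fell and 6 did not pass, with a median of 0. ESRRA, a nuclear receptor of mitochondrial genes, rose by 1.52 (SE 0.15) and its coactivator PPARGC1A by 1.37 (SE 0.21), and RXRG, a retinoid receptor, fell by 1.39 (SE 0.22). In BA minus CH over the mean of the stages, limma called 0 genes of each of these 5 lists. An unadjusted p under 0.05 by limma was found for 1 of the 19 ATP synthase genes, 3 of the 12 partners of ATP export and 2 of the 26 carriers. It was also found for 1 of the 15 genes of fatty acid handling and 2 of the 14 regulators, against 951 of all 7932 tested genes, or 12%.

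Markers of cell types moved over the same interval. All 8 skeletal muscle fibre markers rose, by a median of 2.69, and their mean level went from between 7.79 and 8.30 at 110 dpc to between 10.50 and 10.81 at 260 dpc. MYH2, a fast myosin, rose by 3.53 and MB, myoglobin, by 2.98. All 3 tested proliferation markers fell, PLK1 by 1.57, MCM5 by 1.30 and PCNA by 0.61, while 6 of 8 fibroblast markers fell and 0 rose, with POSTN lowest at -4.37. Of 8 tested leukocyte markers 2 rose and 4 fell, with CSF1R at -1.42, AIF1 at -1.41 and TYROBP at -1.17. Of 8 endothelial markers 4 rose and 1 fell, with KDR at -0.63, TEK at 0.54 and PECAM1 at 0.48.

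Of 5 tested Schwann and nerve markers 4 rose, with MBP at 1.88 and S100B at 1.02. Of 4 erythroid markers 2 fell, HBB at -2.46 and HBA at -1.64, both of a family whose copies share sequence. Of 2 tested adipocyte markers 1 fell, CIDEA at -0.89, while FABP4 was at 1.42 (SE 0.88) with an adjusted p of 0.17 by limma. The mean level over the whole adipocyte list, probes under the filter included, went from -1.21 at 110 dpc to -0.53 at 260 dpc in BA and from -1.79 to -0.94 in CH. What part these shifts had in the changes of SLC25A4, SLC25A5 and SLC25A6 was not tested.

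The genes most like each main probe over the 21 arrays are given as Pearson correlations, without a test, since the arrays share stages. For SLC25A4 they included LDB3, a Z-disc protein (0.988), and COX8B, a subunit of cytochrome oxidase (0.984). For SLC25A5 they were KPNA2, a nuclear import factor (0.981), SEPTIN2, a septin of dividing cells (0.971), and RRM2, a subunit of ribonucleotide reductase (0.971). For the main probe of SLC25A6 they were MCM5, a replication helicase subunit (0.947), COX8A, a subunit of cytochrome oxidase (0.939), and CDK4, a cell cycle kinase (0.937).

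The rising SLC25A6 probe A_73_P232447 was instead most like VDAC2, an outer membrane porin (0.986), EIF1, a translation initiation factor (0.961), and HADHB, an enzyme of fatty acid oxidation (0.960). For UCP2 the most alike was TOPORS (0.721) and for UCP3 ACVR2B (0.622), but these values include the 4 arrays on which neither probe was well above background. Over the other 17 arrays other genes led, TIPRL for UCP2 (0.800) and PECAM1, an endothelial adhesion molecule, for UCP3 (0.797), and TOPORS had 0.352 with UCP2.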

How the data were processed

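Total RNA was amplified, labelled with Cy3 and hybridised to single-colour 4x44K bovine arrays. Per the file headers, the authors made the intensity values with Agilent Feature Extraction 10.7, with detrending, without background subtraction and without scaling between arrays. The authors' deposited value table holds log2 of the same intensity and leaves out values not well above background.

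Spots of a probe were averaged, after removal of controls and of 258 values that the scanner software flagged as outlying. No probe was saturated. Log2 intensity less the 75th percentile of each array (525 to 1174) plus 2.69 was analysed. Probes were named through their transcript identifiers and a RefSeq table of the ARS-UCD2.0 assembly (26628 of 43653 probes, 12538 genes). Coordinates are left out because the design of the array used a different assembly.

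In R 4.3.3, limma 3.58.1 fitted the 8 breed and stage groups (13 residual degrees of freedom), with contrasts adjusted by Benjamini-Hochberg at 0.05, over tested probes or, for UCP2 and UCP3, over all probes. For sex, the model held the groups. Isoform pairs were tested by exact permutation. The labels call the foetuses of a group biological replicates. The 5 genes and all lists were chosen with earlier results of these data known. Named from each list are up to 3 called genes of largest difference, and for likeness the 3 tested genes of highest correlation, and other list genes were named after their values were seen. A few genes that this rule names are not reported here. The number of arrays limits the precision. The models were tested on simulated data. Alternatives changed the normalization, background correction, dim-probe filter, probe, variance model, blocks, covariates and arrays included.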

Additional observations from a re-analysis of the deposited data

How the results depend on the processing

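Of 971 values recomputed under other settings for 67 results, 939 kept their direction and their side of the threshold, or were differences not called in either setting. Among the results for single genes, sign changes of such uncalled differences numbered 75, and 14 more on leaving out 1 array. Those of the isoform pairs were not counted. BA minus CH for SLC25A4 less SLC25A6, for example, ranged from -0.03 to 0.07 on leaving out 1 array. The exceptions follow, and their cause was not tested unless stated. SLC25A4 from 180 to 210 dpc lost its call with quantile normalization (0.31), median scaling (0.39), the authors' table, no filter or a detection filter (each 0.41), females alone (0.33) and sire within breed (0.32). With the authors' table the steps from 110 to 180 dpc of SLC25A4 (0.64) and SLC25A5 (-0.49) also lost theirs, while UCP2 from 110 to 260 dpc gained one (-0.77, and -0.98 in CH). That table is not scaled between arrays, its median tested probe shifts by -0.39 in BA and -0.34 in CH over these stages, and it holds no values near background. SLC25A6 from 180 to 210 dpc gained a call with quantile normalization (-0.37), and its last step lost one in females alone (-0.39).

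The mean of all SLC25A6 probes reversed the change to 0.19 (0.42 in BA, and 0.17 in the last step) and left -0.04 in CH, because its probes oppose each other. A_73_P232447 reversed it to 1.38 (BA 1.60, CH 1.17, last step 0.78) and A_73_P275426 to 1.34 (BA 1.58, CH 1.10, last step 0.90), and A_73_P434891 gave -0.69 in BA, just short of a call. Among isoform shifts, SLC25A5 less SLC25A6 lost its call with normexp background correction (-0.17), and UCP3 less UCP2 with the mean of all probes (0.80). In females alone the 4 shifts were 3.31, 3.12, -0.19 and 0.44, where too few labelings exist to reach the threshold.

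Leaving out 1 array, SLC25A4 from 180 to 210 dpc ranged from 0.33 to 0.47 and lost its call without BA 180 dpc replicate 1 or 2, BA 210 dpc replicate 3, CH 180 dpc replicate 1 or 3, or CH 210 dpc replicate 1 or 3. The shift ranged from 3.39 to 3.53 for SLC25A4 less SLC25A5, from 3.09 to 3.17 for SLC25A4 less SLC25A6, from -0.40 to -0.27 for SLC25A5 less SLC25A6 and from 0.59 to 1.22 for UCP3 less UCP2. The first 2 lost their call only where a group of 2 arrays was left with 1, since fewer labelings then remain. UCP3 less UCP2 moved by over 1.5 times without BA 260 dpc replicate 2 (0.59). Foetuses with the same replicate number did not deviate together (median correlation 0.0090 over 66 pairs), and the replicate block, with 2.14 for SLC25A4, -1.33 for SLC25A5 and -0.99 for SLC25A6 from 110 to 260 dpc, changed no call. Dim signal limits UCP2 and UCP3, well above background on 17 of 21 arrays.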
